A study of Rattus norvegicus with 4 samples.

Results

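The antiviral interferon-stimulated effectors are genes of the interferon response to viruses. Many of their products act directly on viral RNA, viral proteins or the nucleotides that viruses need, and others sense viral nucleic acid or regulate the response. They were taken as a list of 33 gene symbols, chosen by function but with earlier results of these data known, and a member was the annotated entry with that symbol. Of the 33 symbols, 30 were present in the expression tables, which together held 16982 annotated genes, and Herc6, Ifi44l and Xaf1 were not among them. The members were grouped into 8 classes by the role of their products.

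Liver RNA (left lateral lobe) of 4 wild type male Wistar rats, bought at 6 weeks of age, was sequenced to compare the effects of the inhaled anesthetics sevoflurane and desflurane. One rat was kept for 6 hours under 4.5% sevoflurane and one for 6 hours under 6% desflurane. The control of each agent was a rat that inhaled the same agent and was sacrificed as soon as it lost consciousness, so that the controls were also exposed, briefly, to the anesthetic. All rats were sacrificed at about the same hour of the day. By the study's methods, food and water were withheld before anesthesia, to which the hours under anesthesia were added for the 6 h rats. Time without food therefore cannot be told apart from time under anesthesia. With 1 library per condition, the tables hold no replicate for any value, no error between animals could be given, and no test was made. The qPCR measurements of the study were not analysed here. Individual rats therefore cannot be told apart from the conditions they stand for.

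Type I and type III interferons bind their receptors and activate the kinases JAK1 and TYK2, which phosphorylate transcription factors in the cytoplasm. The complex that these form with IRF9, called ISGF3, binds the interferon-stimulated response element (ISRE) near the start of the effector genes. Type II interferon acts on a different element, the gamma-activated sequence (GAS). In the liver, hepatocytes, endothelial cells and resident macrophages (Kupffer cells) can all carry out this response, and a low level of effector RNA is kept up without infection.

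The letters of the ISRE were frequent before the starts of these genes. The 250 bases before the RefSeq start (build GRCr8) could be read for 24 of the 33 members. No promoter entry was matched for Oas2, Ifit1, Ifit2, Mx2, Ddx58, Dhx58, Zbp1, Isg15 and Usp18. The core of the ISRE (GAAA, any 2 bases and GAAA), on either strand, was found in 16 of the 24 members (66.7%) and in 1140 of all 33469 promoters of the same length (3.41%). The core of the GAS (TTC, any 3 bases and GAA), also on either strand, was found in 6 of the 24 members (25%) and in 2566 of all promoters (7.67%). In the Bst2 promoter a copy of each core overlapped. The 150 bases before the start are printed 5′ to 3′ for members with a match whose expression is described below, 1 for each class with a match, together with Oas1b and Ifi44, with the ISRE core in capitals.
Oas1a, chr12:41330316-41330465, plus strand: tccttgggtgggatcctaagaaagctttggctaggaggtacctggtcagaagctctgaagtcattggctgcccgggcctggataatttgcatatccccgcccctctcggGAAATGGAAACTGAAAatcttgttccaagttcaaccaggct
Oas1b, chr12:41395853-41396002, minus strand: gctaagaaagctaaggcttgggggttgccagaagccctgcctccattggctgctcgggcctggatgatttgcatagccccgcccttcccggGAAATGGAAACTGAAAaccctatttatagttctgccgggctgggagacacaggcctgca
Ifit3, chr1:241527176-241527325, plus strand: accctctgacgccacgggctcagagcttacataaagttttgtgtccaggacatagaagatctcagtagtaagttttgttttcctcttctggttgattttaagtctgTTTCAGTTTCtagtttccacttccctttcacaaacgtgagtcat
Ifih1, chr3:67683969-67684118, minus strand: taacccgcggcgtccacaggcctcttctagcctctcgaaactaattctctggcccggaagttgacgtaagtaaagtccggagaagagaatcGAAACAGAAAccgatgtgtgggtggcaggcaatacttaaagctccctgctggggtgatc
Parp14, chr11:78407984-78408133, plus strand: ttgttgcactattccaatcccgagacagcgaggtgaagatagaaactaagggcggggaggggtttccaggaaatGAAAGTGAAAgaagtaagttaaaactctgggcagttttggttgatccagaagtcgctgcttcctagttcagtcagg
Rsad2, chr6:48788121-48788270, minus strand: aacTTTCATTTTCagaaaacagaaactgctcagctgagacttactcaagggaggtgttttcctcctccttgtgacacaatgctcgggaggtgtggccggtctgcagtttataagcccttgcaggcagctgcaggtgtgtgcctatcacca
Ifi27, chr6:128355162-128355311, plus strand: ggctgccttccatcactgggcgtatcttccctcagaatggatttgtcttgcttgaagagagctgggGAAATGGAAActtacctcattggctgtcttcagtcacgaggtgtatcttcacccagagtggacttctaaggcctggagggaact
Ifi44, chr2:243303841-243303990, minus strand: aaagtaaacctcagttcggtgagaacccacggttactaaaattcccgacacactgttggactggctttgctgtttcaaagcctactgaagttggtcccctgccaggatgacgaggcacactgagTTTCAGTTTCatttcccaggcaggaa
In the promoters of Oas1a and Oas1b, 2 overlapping copies formed the same 16 letters, at bases -41 to -26 in Oas1a and at bases -59 to -44 in Oas1b. A pair of overlapping copies was also present in the promoter of Bst2. In Ifit3, Rsad2 and Ifi44 the core lay on the opposite strand, so that the capitals begin and end with TTTC. A further copy in Ifi27 lay outside the printed bases. The 8 members whose window held no ISRE core were Oasl, Mx1, Parp9, Dtx3l, Herc6, Cmpk2, Samhd1 and Helz2, which says only that these letters were not in this window.

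**Figure D1:**
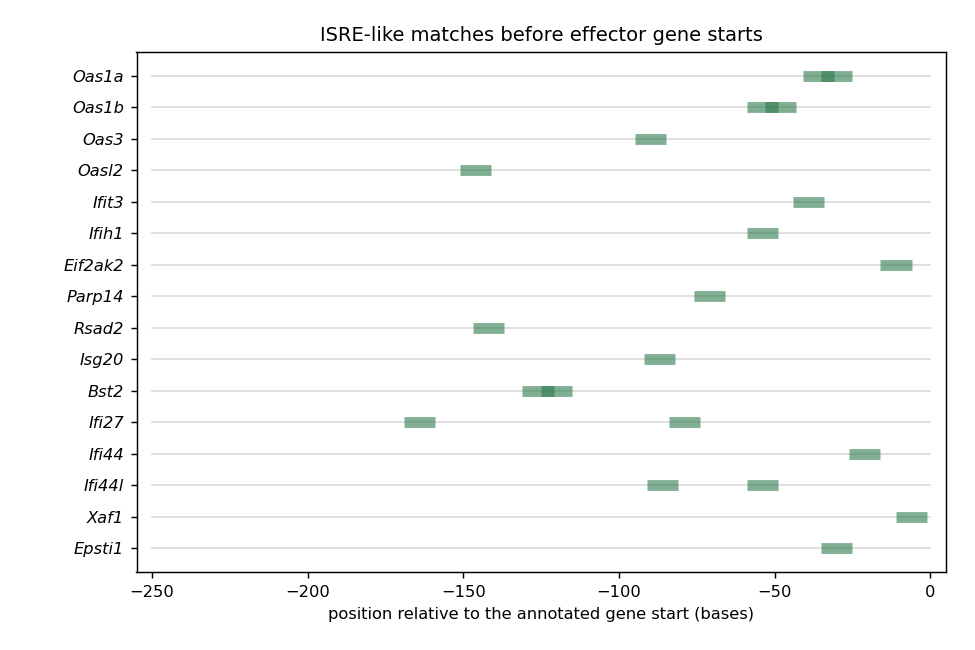
Positions of the ISRE core before the annotated starts of the 16 members with a match. Each grey line is the window of 250 bases, with the start at 0 on the horizontal axis, and each green block is a copy of the core on either strand, darker where copies overlap. Copies lie from base -169, in Ifi27, to base -2, in Xaf1.

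Expression was read as the deposited TPM, which takes transcript length into account, so that levels may be compared between genes. The amount of aligned sequence derived from the tables was between 4.47 and 5.40 Gb per library. Expression of the members ranged from a mean of 0.62 TPM for Ifit1 to a mean of 417 TPM for Ifi27. A level above 2 TPM was reached in all 4 libraries by 23 members and in none of the 4 by Oas3 and Ifit1. In these whole-liver samples, fewer cells of a type and less RNA per cell cannot be told apart.

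**Figure D2:**
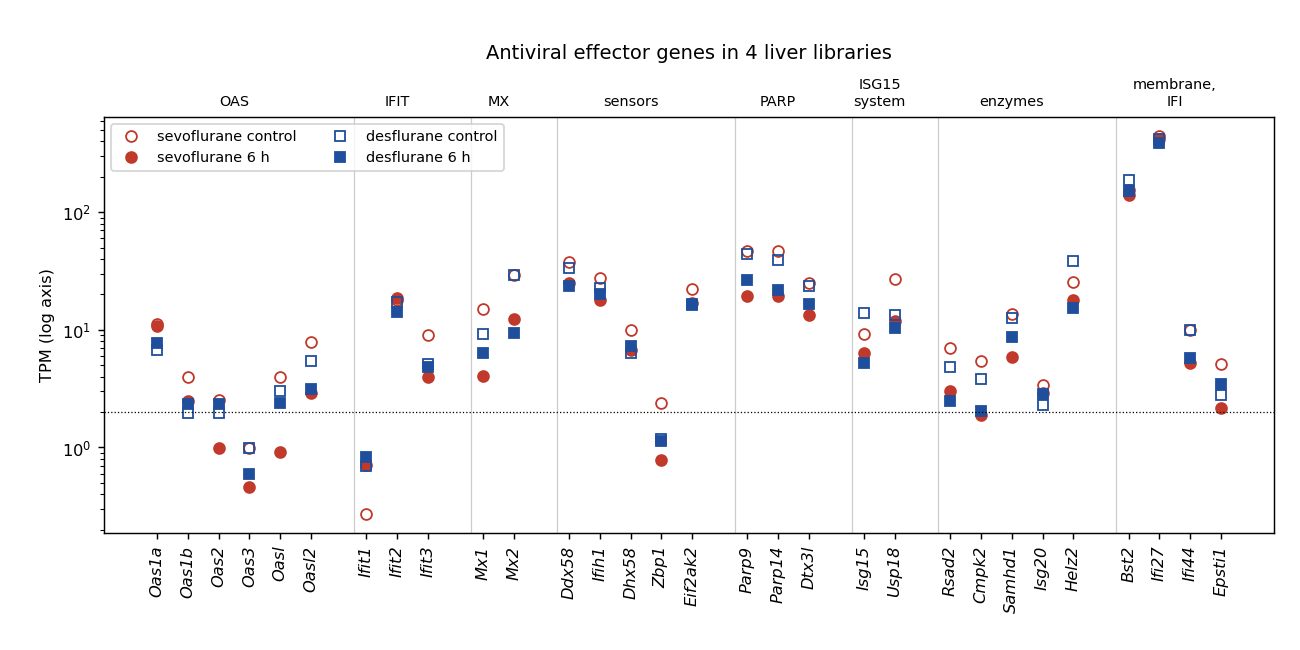
Expression of the 30 effector genes in each of the 4 libraries, in TPM on a log axis, ordered by class. Open symbols are the controls, filled symbols the 6 h libraries, and the dotted line marks 2 TPM. Mx2 and Parp14 show both filled symbols below both open ones, whereas the symbols of Ifi27 almost coincide.

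Across the list, expression was lower after 6 hours of anesthesia, more so with sevoflurane than with desflurane when each was set against its own control. A difference was counted when TPM was above 2 in the higher library and the libraries differed more than 2-fold. With sevoflurane, 14 of the 28 members with a control level above 2 TPM were lower by this measure, where the percentage over all such genes was 3.38%. They were Oas2, Oasl, Oasl2, Ifit3, Mx1, Mx2, Zbp1, Parp9, Parp14, Usp18, Rsad2, Cmpk2, Samhd1 and Epsti1. With desflurane, 3 of 25 members, Mx2, Isg15 and Helz2, were lower, where the percentage over all such genes was 1.53%. No member was higher with sevoflurane (2.3% over all genes) or with desflurane (2.84% over all genes). Mx2 was the 1 member counted with both agents, 13 were counted with sevoflurane alone and 2 with desflurane alone. The shares over all genes were not computed for this split, and whether the agents differed was not tested.

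The same direction was present in smaller differences. With sevoflurane, 28 of the 30 members had a lower value than in the control, beside 4245 of all 9754 genes above 2 TPM in either library. The median log2 ratio, computed after adding 1 TPM, was -0.82 over the members and 0.05 over all genes above 2 TPM in either library. With desflurane, 23 of 30 had a lower value, beside 3287 of 9855 such genes, and the medians were -0.32 over the members and 0.11 over all genes. Over the 9136 genes above 2 TPM in all 4 libraries, the desflurane median, without added TPM, moved from 0.12 to -0.00 under median-of-ratios scaling. This scaling left 23 members lower, with a median of -0.42 after adding 1 TPM.

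Because each agent had a control of its own, each 6 h library could also be set against the other control. Sevoflurane against the desflurane control gave 8 of 25 members lower, namely Oasl, Mx1, Mx2, Parp9, Parp14, Isg15, Samhd1 and Helz2, where the percentage over all such genes was 2.64%. Desflurane against the sevoflurane control gave 8 of 28, namely Oasl2, Mx1, Mx2, Zbp1, Parp14, Usp18, Rsad2 and Cmpk2, where the percentage over all such genes was 1.64%. No member was counted as higher in either (2.6% and 2.89% over all genes). The choice of control therefore moved the count from 14 to 8 for sevoflurane and from 3 to 8 for desflurane. Against both controls, sevoflurane kept 6 members (Oasl, Mx1, Mx2, Parp9, Parp14 and Samhd1) and desflurane kept 1, Mx2. The shares of all genes kept against both controls were not computed. The medians were -0.43 for sevoflurane and -0.57 for desflurane, beside 0.06 and 0.10 over all genes.

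The sevoflurane control held the highest level of the 4 libraries for 22 members, and the desflurane control for 6. The shares over all genes were not computed for this ranking. Between the controls, 23 of 30 members had the lower level with desflurane, beside 5353 of 9756 genes above 2 TPM in either control. The median log2 ratio was -0.26 beside -0.03 over all genes. By the limits above, Usp18 alone differed between the controls (13.4 against 26.9 TPM), where the percentage lower over all such genes was 1.2%, and no member was higher (1.19% over all genes). The 2 control rats thus differed in the level of these genes before prolonged anesthesia. Both 6 h libraries lay below both controls for 18 of the 25 members above 2 TPM in both controls, where the percentage over all such genes was 13.7%. Of the remaining 7, none lay above both controls in both 6 h libraries. Ifit1, at less than 1 TPM throughout, was the 1 member of the 30 that did, where the percentage over all genes above 2 TPM in both 6 h libraries was 35%.

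Set directly against each other, the 6 h livers differed little. The desflurane library was higher for 18 members and lower for 12, with a median log2 ratio of 0.10 beside 0.06 over all genes. Of all 9829 genes above 2 TPM in either library, 5755 were higher with desflurane and 4074 lower. Oas2 (2.36-fold) and Oasl (2.61-fold) were higher with desflurane by the measure above, where the percentage over all such genes was 2.8%, and none was lower (1.21% over all genes). Both are among the members with the lowest expression, and neither was counted when the limit was 5 TPM.

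**Figure D3:**
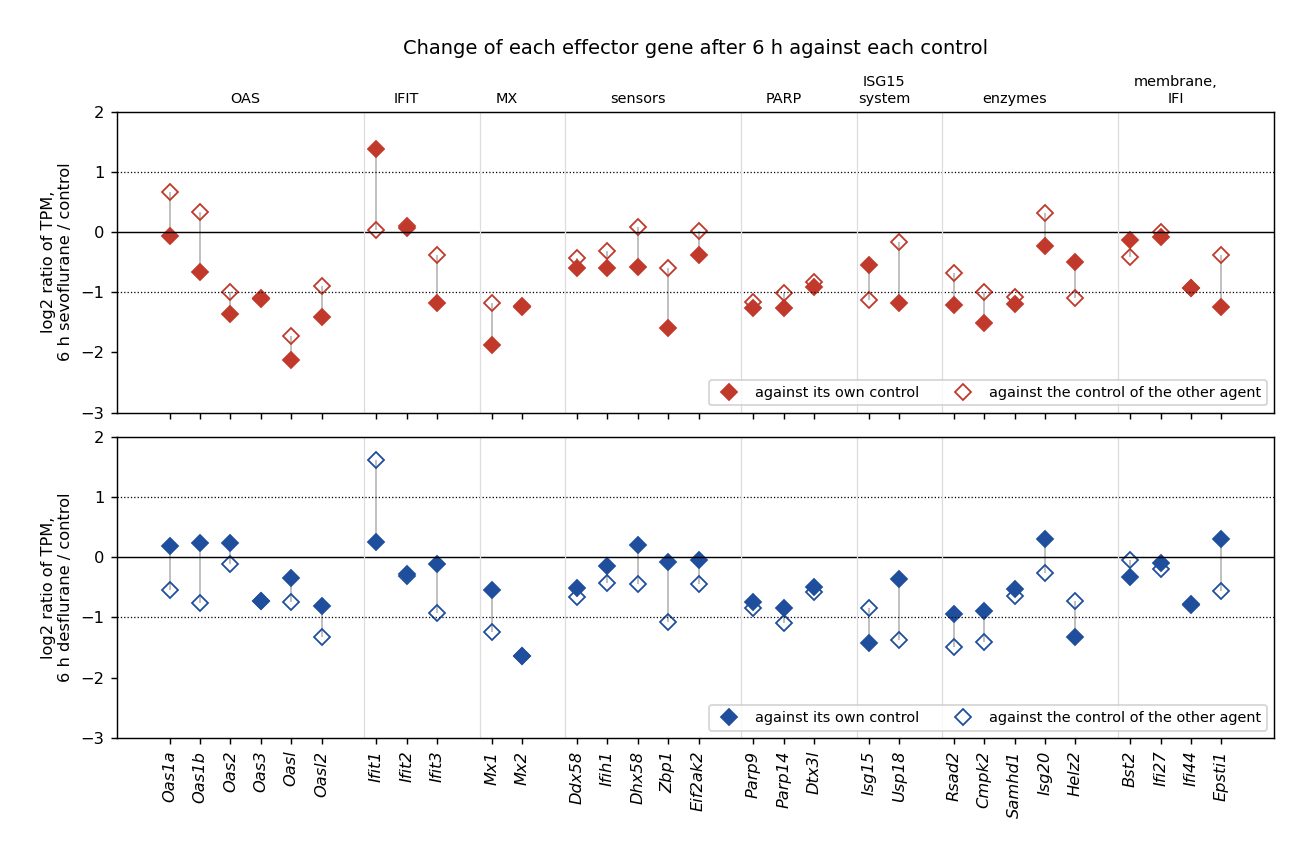
Log2 ratio of TPM for each effector gene, 6 h of sevoflurane (upper panel) and 6 h of desflurane (lower panel) against a control, with filled diamonds for the agent's own control and open diamonds for the control of the other agent. Dotted lines mark a 2-fold difference and a grey line joins the ratios of 1 gene. The diamonds of Mx2 lie on each other in both panels, whereas those of Usp18, Zbp1 and Ifit1 lie far apart.

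The MX GTPases, dynamin-like proteins that trap incoming viral nucleoproteins, were lower after both agents and against both controls. Mx2, whose product is cytoplasmic in the rat, was measured at 29.1 TPM in the sevoflurane control and 29.3 TPM in the desflurane control, and at 12.4 TPM after sevoflurane and 9.38 TPM after desflurane. The controls were almost equal, and the decrease was 2.35-fold with sevoflurane and 3.12-fold with desflurane. Mx1, whose product is nuclear in the rat, was measured at 15.1 and 9.28 TPM in the sevoflurane and desflurane controls, and at 4.09 and 6.38 TPM after 6 hours. It was 3.69-fold lower with sevoflurane, whereas with desflurane it was 1.46-fold below its own control and 2.36-fold below the sevoflurane control. The sum of both genes was 44.1 and 38.6 TPM in the controls and 16.5 and 15.8 TPM after sevoflurane and desflurane, so that the class retained 39.8% and 38.1% of the mean of the controls. The genes lie 119 kb apart on chromosome 11 of the rn6 genome (chr11:37891150-37916690 for Mx1 and chr11:38035513-38059579 for Mx2), on opposite strands.

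Parp9, Dtx3l and Parp14 encode interferon-induced ADP-ribosyltransferases and the ubiquitin ligase DTX3L that pairs with PARP9. Parp9, the most abundant of them, was at 47.1 and 43.8 TPM in the sevoflurane and desflurane controls, and at 19.6 and 26.3 TPM after 6 hours. Parp14 was at 46.5 and 39.1 TPM in the controls and at 19.3 and 21.8 TPM after 6 hours. Both genes were lower by 2.41-fold with sevoflurane and by 1.67-fold and 1.80-fold, respectively, with desflurane. Dtx3l showed ratios of the same direction that did not reach 2-fold, 1.88-fold lower with sevoflurane and 1.41-fold lower with desflurane. All 3 genes had both 6 h libraries below both controls, and their sum was 119 and 107 TPM in the controls against 52.2 and 64.8 TPM. Parp9 (chr11:67724074-67756797) and Dtx3l (chr11:67758011-67767622) are divergent neighbors whose annotated ends lie 1.21 kb apart, and Parp14 (chr11:68105442-68137509) lies 338 kb further on.

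The OAS family members bind double-stranded RNA, and the catalytic ones make the oligoadenylates that activate RNase L. With sevoflurane, 3 of the 5 members above 2 TPM in the control were lower, and with desflurane 0 of 3. Oasl, an OAS-like gene (chr12:47444138-47456160), was at 3.96 and 3.03 TPM in the sevoflurane and desflurane controls, and at 0.912 and 2.38 TPM after 6 hours. This decrease with sevoflurane was 4.35-fold, and 3.32-fold against the desflurane control. With a pseudocount of 1 TPM it was 2.60-fold, below the 3.16-fold of Mx1. Its neighbor Oasl2 (chr12:47470651-47482947) was at 7.81 and 5.46 TPM in the controls and at 2.92 and 3.12 TPM after 6 hours. Oasl2 was 2.67-fold lower with sevoflurane and 1.75-fold lower with desflurane, and its 6 h libraries were close to each other.

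Oas2 was 2.56-fold lower with sevoflurane and had a ratio of 1.18 with desflurane. It was at 2.52 TPM in the sevoflurane control and 0.983 TPM after sevoflurane, and at 1.96 TPM in the desflurane control and 2.32 TPM after desflurane. The single low library was that of sevoflurane. Oas1a (chr12:41200729-41211389), the most abundant member of the family, was at 11.3 and 6.77 TPM in the controls and at 10.7 and 7.69 TPM after 6 hours, so that both libraries of sevoflurane exceeded both of desflurane. The transcripts assembled from the reads at Oas1a gave the opposite direction with sevoflurane, 11.2 TPM in the control and 14.6 TPM after 6 hours. Oas1b was 1.58-fold lower with sevoflurane and had a ratio of 1.18 with desflurane, and Oas3 stayed between 0.462 and 0.994 TPM. Oas1a, Oas1b, Oas3 and Oas2 lie in a cluster on chromosome 12 (chr12:41200729-41363124) with near-identical relatives. One of these, Oas1i, had between 5.07 and 6.87 TPM, and the Oas1a and Oas1b values are uncertain to the extent that reads were divided between such copies, which was not measured.

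The IFIT proteins bind viral RNA and limit its translation. Ifit3 (chr1:252906234-252911375) was at 9.07 and 5.17 TPM in the sevoflurane and desflurane controls, and at 3.98 and 4.80 TPM after 6 hours. It was 2.28-fold lower with sevoflurane and 1.08-fold lower with desflurane, and the level in the sevoflurane control stood above the other 3. Ifit2 (chr1:252894663-252900727), the most abundant of the family, was at 17.8 and 17.3 TPM in the controls and at 18.7 and 14.3 TPM after 6 hours, a ratio of 1.05 with sevoflurane and 0.827 with desflurane. Ifit2 and Ifit3, whose annotated ends lie 5.51 kb apart, thus did not share the sevoflurane decrease. Ifit1 was between 0.271 and 0.827 TPM, too low to be counted.

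Among the sensors of viral nucleic acid, 1 of 5 was counted with sevoflurane and 0 of 4 with desflurane. Zbp1, which binds left-handed nucleic acid and can start necroptosis, was at 2.37 TPM in the sevoflurane control, 0.786 TPM after sevoflurane, 1.19 TPM in the desflurane control and 1.13 TPM after desflurane. It was 3.02-fold lower with sevoflurane, and only its sevoflurane control exceeded 2 TPM. Ddx58 (chr5:56486584-56536898), which encodes the RNA helicase RIG-I, was the most abundant sensor, with 37.8 and 33.8 TPM in the sevoflurane and desflurane controls and 25.1 and 23.8 TPM after 6 hours. It did not reach 2-fold, with 1.51-fold and 1.42-fold lower values, but both 6 h libraries lay below both controls. Ifih1, which encodes the helicase MDA5, was 1.52-fold and 1.11-fold lower. Dhx58, which encodes the related LGP2, was 1.49-fold lower with sevoflurane and had a ratio of 1.15 with desflurane. Eif2ak2, which encodes the RNA-activated kinase PKR that halts translation, was within 1.31-fold of its control with either agent. The sum of the 5 sensors retained 75.0% and 76.3% of the mean of the controls after sevoflurane and desflurane.

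Isg15 encodes the ubiquitin-like modifier of the interferon response, and Usp18 encodes the protease that removes it from proteins and damps signaling at the interferon receptor. Their pattern was opposite with respect to the agents. Isg15 (chr5:173624902-173626189) was at 9.25 and 13.8 TPM in the sevoflurane and desflurane controls, and at 6.30 and 5.17 TPM after 6 hours, a decrease of 2.67-fold with desflurane beside a 1.47-fold lower value with sevoflurane. Usp18 (chr4:153806080-153834374) was at 26.9 and 13.4 TPM in the controls and at 11.9 and 10.4 TPM after 6 hours, a decrease of 2.26-fold with sevoflurane beside a 1.29-fold lower value with desflurane. In each case the control with the higher level belonged to the agent with the larger decrease, and the 6 h levels were within 1.22-fold of each other for Isg15 and 1.15-fold for Usp18.

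Of the enzymes that act on nucleotides and nucleic acids, 3 of 5 were lower with sevoflurane and 1 of 5 with desflurane. Rsad2, which encodes viperin, the maker of a chain-terminating nucleotide, was at 6.96 and 4.78 TPM in the sevoflurane and desflurane controls, and at 2.99 and 2.48 TPM after 6 hours. Its neighbor Cmpk2, a mitochondrial nucleotide kinase, was at 5.40 and 3.78 TPM in the controls and at 1.90 and 2.03 TPM after 6 hours. The decrease with sevoflurane was 2.33-fold for Rsad2 and 2.84-fold for Cmpk2, and with desflurane the values were 1.93-fold and 1.86-fold lower, just short of the limit. The Rsad2 decrease with sevoflurane was 1.99-fold with a pseudocount of 1 TPM, 1.96-fold against the mean of both controls and 1.75-fold in assembled rows. The genes are divergent, with 14.9 kb between their annotated ends (chr6:45655947-45669083 and chr6:45684017-45694819).

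Samhd1, which breaks down deoxynucleotides, was at 13.6 and 12.6 TPM in the sevoflurane and desflurane controls, and at 5.93 and 8.72 TPM after 6 hours. It was 2.28-fold lower with sevoflurane and 1.44-fold lower with desflurane, and the controls differed by 1.08-fold. Helz2 (chr3:176730024-176744370), a helicase, was the most abundant of the class, with 25.3 and 38.3 TPM in the controls and 17.9 and 15.2 TPM after 6 hours. It was 2.52-fold lower with desflurane and 1.41-fold lower with sevoflurane, a pattern like that of Isg15 with the desflurane control highest. Isg20, an RNA exonuclease, stayed between 2.31 and 3.41 TPM.

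The 2 members with the highest expression differed little between libraries. Ifi27 (chr6:127327959-127334431), a small hydrophobic protein of inner membranes, was at 445 and 417 TPM in the sevoflurane and desflurane controls, and at 418 and 388 TPM after 6 hours. Bst2, which tethers budding virions to the cell surface, stayed between 141 and 189 TPM. Ratios against the own control were 1.06-fold and 1.07-fold lower for Ifi27 with sevoflurane and desflurane, and no more than 1.26-fold lower for Bst2. A related gene in the tables, Ifi27l2b, was between 78.7 and 120 TPM, and whether it shares reads with Ifi27 was not measured. Ifi44 was between 5.22 and 9.97 TPM, and was 1.90-fold and 1.73-fold lower, with almost equal controls (9.91 and 9.97 TPM). Epsti1 (chr15:60084966-60190360), a modulator of macrophage activation, was at 5.11 and 2.82 TPM in the controls and at 2.15 and 3.48 TPM after 6 hours. Its 2.37-fold decrease with sevoflurane stood beside a ratio of 1.23 with desflurane.

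Ifi27 and Bst2 together made up most of the summed TPM of the list, 1026 and 977 TPM in the sevoflurane and desflurane controls against 795 and 782 TPM after 6 hours. By class, the sums after sevoflurane and desflurane were lowest relative to the mean of the controls for the MX genes. They were 46.4% and 57.6% for the PARP group, 57.4% and 49.1% for the ISG15 system and 54.3% and 53.8% for the nucleotide and nucleic acid enzymes. The OAS family retained 73.0% and 72.8%, with the sevoflurane control at 120% and the desflurane control at 79.7% of their mean. The IFIT family retained 92.7% and 79.2%, and the membrane and IFI proteins 91.8% and 88.8%.

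Markers of other cells of the liver were read beside these classes. The summed TPM of 10 Kupffer cell markers was 719 in the sevoflurane control and 452 after sevoflurane, with 10 of 10 lower in value and 3 past the limits, Marco, Adgre1 and Csf1r. In the desflurane control and after desflurane it was 561 and 684, with 9 of 10 higher in value and none past the limits. Over all genes above 2 TPM in either library, 4245 of 9754 were lower in value with sevoflurane. With desflurane, 6568 of 9855 were higher in value. The 5 pan-leukocyte markers added up to 70.9 and 38.3 TPM for the control and 6 h libraries of sevoflurane, with Ptprc and Cd53 past the limits, and to 53.2 and 53.0 TPM for those of desflurane. The sums of these 2 lists thus moved with the effectors for sevoflurane, and their part in the result was not tested.

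Markers of T and NK cells added up to 29.1, 21.9, 27.5 and 30.4 TPM in the sevoflurane control, the sevoflurane, the desflurane control and the desflurane libraries, and most of this was Cd4, between 18.3 and 23.3 TPM. Cd8a (3.49-fold), Nkg7 (4.28-fold) and the B cell marker Cd79b (9.63-fold) were past the limits with sevoflurane, each from a control level below 4 TPM, and none was with desflurane. In the same order, B cell markers gave 4.91, 2.20, 3.02 and 2.81 TPM, neutrophil markers 7.84, 5.28, 9.69 and 4.74 TPM (4 of 5 lower in value with desflurane), and plasmacytoid dendritic cell markers 12.5, 8.61, 11.7 and 11.2 TPM. Hepatocyte markers, led by Alb, gave between 136381 and 152816 TPM, by far the most abundant of all lists in this liver tissue, and endothelial markers between 168 and 197 TPM. Stellate cell markers were between 77.1 and 101 TPM and cholangiocyte markers did not exceed 16.9 TPM. The sevoflurane control also held pancreatic acinar RNA, with Ctrb1 at 8.94, Prss1 at 6.58 and Pnlip at 3.45 TPM, all 3 listed at 0 in the other libraries. The 6 acinar markers added up to 47.4 TPM in it and to between 15.2 and 18.5 TPM in the others. Erythroid markers gave 78.4, 54.3, 57.8 and 32.3 TPM in the order above, with Alas2 past the limits with sevoflurane (2.20-fold lower) and Hbb with desflurane (2.15-fold lower). The neutrophil, erythroid, B cell, plasmacytoid dendritic cell and pan-leukocyte sums thus lay lower in both 6 h libraries than in both controls. With desflurane the margin was small for the last 3 of these lists. It was also small with sevoflurane for erythroid markers, at 54.3 TPM beside 57.8 TPM in the desflurane control. Single markers did not all follow the sums. Tcf4, most of the plasmacytoid dendritic cell sum, was at 8.80 TPM in the desflurane control and 9.70 TPM after desflurane. Alas2 was at 5.93 and 6.03 TPM, and 3 of 5 pan-leukocyte and 2 of 4 B cell markers were also higher in value with desflurane. Many effectors had the same order as the sums, and the part of these cells in the results for either agent was not tested. The sevoflurane control was the highest of the 4 libraries for 22 effectors as well, and its part in the differences was not tested. The members counted when the desflurane control was used instead are given above.

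**Figure D4:**
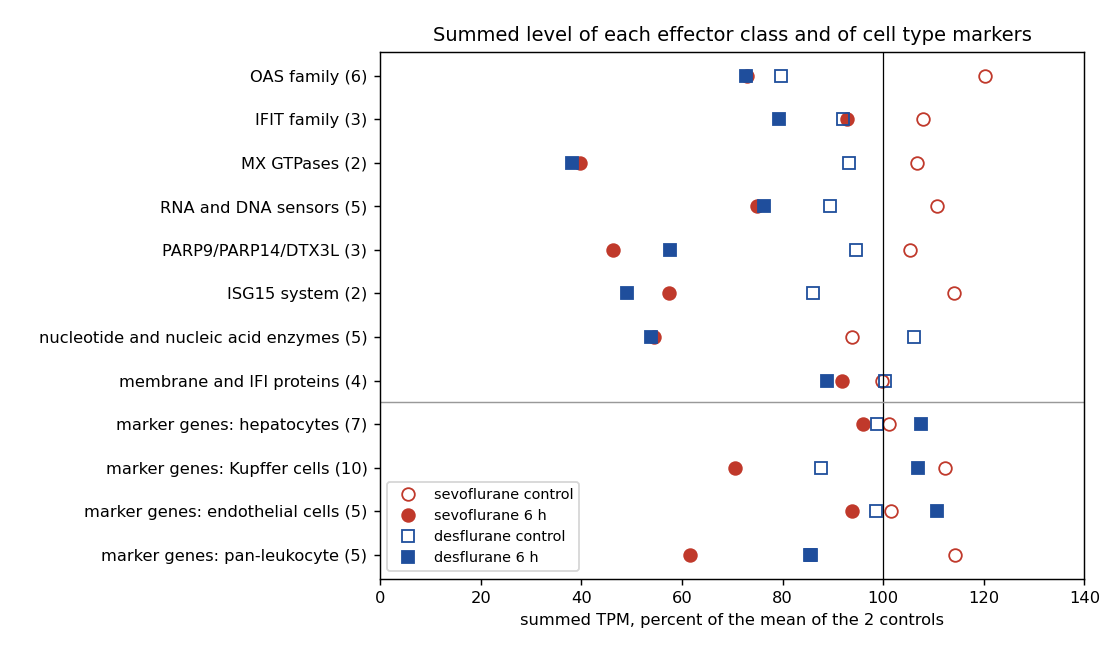
Summed TPM of each effector class and of 4 marker lists in each library, as a percentage of the mean of the 2 controls, with the number of genes in parentheses. Both filled symbols lie between 38.1% and 57.6% for the MX, PARP, ISG15 and enzyme classes, whereas Kupffer cell markers were 70.6% after sevoflurane (filled circle) and 107% after desflurane (filled square).

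The genes that signal to the effectors were listed separately, by role, and 33 of the 43 covered here were in the tables. Of these 43, which do not include every gene of the pathway, 24 were above 2 TPM in both controls. With sevoflurane 3 of the 24 were lower by the same limits (3.38% over all genes), and with desflurane 2 of 24 (1.53% over all genes), while none was higher with either agent against its own control. Among the interferon genes, Ifna1, Ifna2 and Ifnb1 were listed at 0 in all 4 libraries. Ifng was at 0.438 TPM in the sevoflurane control and listed at 0 in the others, and Ifnk, a type I interferon, was at 1.38 and 1.92 TPM in the sevoflurane and desflurane controls and at 1.34 and 3.13 TPM after 6 hours. After desflurane Ifnk was 2.27-fold above the sevoflurane control. The 5 receptor subunits in the tables were all higher in value with desflurane, with ratios of 1.34 for both Ifnar1 and Ifngr1. With sevoflurane 4 of 5 were lower in value, and none was past the limits with either agent. Of all genes above 2 TPM in either library, 6568 of 9855 were higher in value with desflurane. With sevoflurane, 4245 of 9754 were lower in value.

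Stat2, which encodes a subunit of ISGF3, was at 50.3 and 42.0 TPM in the sevoflurane and desflurane controls and at 52.9 and 53.1 TPM after 6 hours, and had no lower value with either agent. Irf9, which encodes its DNA-binding subunit, was at 34.4 and 20.6 TPM in the controls and at 17.9 and 18.9 TPM after 6 hours, which did not reach 2-fold. The sevoflurane control stood above the other 3 libraries for Irf9, as it did for Usp18 and Ifit3.

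Irf7, the interferon-induced amplifier of interferon transcription, was at 35.4 and 21.3 TPM in the controls and at 16.0 and 15.5 TPM after 6 hours, a decrease of 2.21-fold with sevoflurane beside a 1.37-fold lower value with desflurane. Irf1, which can drive many effector genes on its own, was at 23.8 and 19.1 TPM in the controls and at 4.71 and 8.65 TPM after 6 hours, 5.05-fold lower with sevoflurane and 2.21-fold lower with desflurane. Socs3, a feedback inhibitor of cytokine receptors, was at 15.2 and 24.2 TPM in the controls and at 3.74 and 9.76 TPM after 6 hours, 4.06-fold and 2.48-fold lower. Irf1 and Socs3 were thus counted with both agents against their own controls, as Mx2 was among the effectors. Against the control of the other agent, Irf1 was counted with both agents, Socs3 with sevoflurane only and Irf7 with desflurane only. The percentages over all genes for these comparisons are given above. None of the 7 sensing adaptors and kinases in the tables, Mavs, Myd88, Tbk1 and Trim25 among them, was past the limits.

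**Figure D5:**
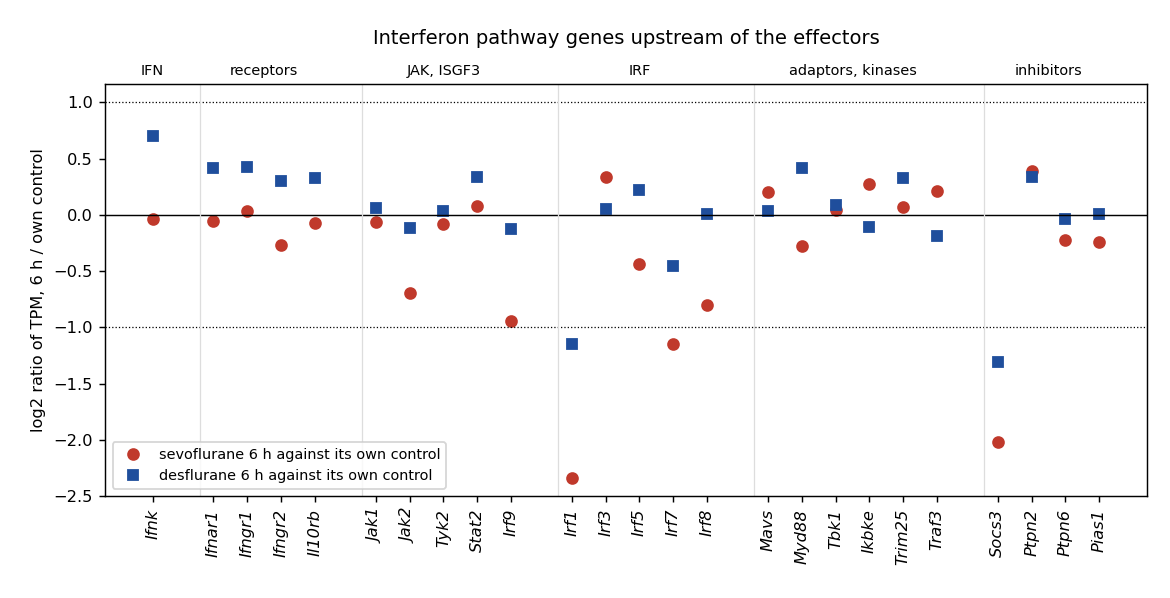
Log2 ratio of TPM, 6 h against the agent's own control, for interferon pathway genes upstream of the effectors, with circles for sevoflurane and squares for desflurane. Dotted lines mark a 2-fold difference, and genes below 2 TPM in every library are not drawn. Irf1 and Socs3 lie past the lower line with both agents, Irf7 with sevoflurane only, and Stat2 lies above 0 with both.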

How the data were processed

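Liver RNA of 4 rats was analysed, 1 library per condition, with conditions taken from the sample labels. The labels name the TruSeq Stranded Total RNA Gold kit, whereas the study's methods name another Illumina kit. Per the study's methods, the authors used sickle 1.33 for trimming, HISAT2 2.1.0 for alignment to rn6, SAMtools 1.10 for sorting and StringTie 2.1.2, guided by the refGene annotation, for quantification. The deposited tables hold, per gene, the average coverage as a signal without normalization and an FPKM value. The deposited TPM is a signal whose scale was set by StringTie on its assembled rows alone, which sum to 1000000 per library, and the annotated rows come on top with sums between 779824 and 813454. No read counts are given, so that the precision of a value is known only through its coverage, which among members was between 0.49 (Ifit1) and 801 (Ifi27) reads per base.

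Annotated rows spanning 200 bases or fewer, between 495 and 518 per library, were removed here, and TPM values were summed per symbol over the genes listed in all 4 tables. The limits (above 2 TPM in the higher library, more than 2-fold) are those of the study's methods and use no pseudocount, whereas medians use 1 TPM. No test was made. Aligned sequence was derived from the ratio of FPKM to coverage, which 96.3% to 96.5% of rows shared within 0.2%. The limits were also run on simulated data, which checked only that large planted differences in genes well above 2 TPM were recovered. Smaller differences, low levels and the spread between rats were not simulated.

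TPM in all 4 libraries was given for members past the limits against their own control with at least 1 agent and for the most abundant member of each class, and other members are given by ratio or range. Pathway genes named are those past the limits, together with Stat2, Irf9 and Irf7, and 1 further gene under this rule is not reported here and was left out of its list. The remaining pathway and marker genes named, and the sequences printed, were chosen after their values were seen. The members, classes and lists were chosen with earlier results of these data known. Promoters are those of RefSeq on GRCr8, and gene coordinates are those of the files on rn6. Alternatives covered the TPM and fold limits, pseudocounts, scaling, FPKM, coverage, rows per gene, the length filter, the control and the members included. Python 3.11.15, numpy 2.4.6, pandas 2.3.3 and matplotlib 3.10.9 were used.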

Additional observations from a re-analysis of the deposited data

Results flagged for a closer look

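For 6 members with a mean above 2 TPM, the 6 h library and its own control differed in opposite directions for sevoflurane and desflurane. Oas2, with a mean of 1.95 TPM, also did so, with log2 ratios of -1.36 and 0.24, and is not among these 6. With 1 library per condition, none of these differences was tested. The log2 ratio with desflurane minus that with sevoflurane was 1.55 for Epsti1, whose ratio was -1.25 with sevoflurane and 0.30 with desflurane. It was 0.90 for Oas1b (-0.66 and 0.24) and 0.78 for Dhx58 (-0.58 and 0.21). It was 0.54 for Isg20 (-0.24 and 0.30) and 0.26 for Oas1a (-0.07 and 0.18). Ifit2 was the 1 member of the 6 with the higher value after sevoflurane, at -0.34 (0.07 and -0.27). In Epsti1, Oas1b, Dhx58, Isg20 and Oas1a the sevoflurane control held the highest of the 4 levels, and among the 6 only Epsti1 with sevoflurane was past 2-fold against its own control.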

How the results depend on the processing

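No paired analysis was possible because each condition has 1 library and the labels carry no replicate numbers, and for the same reason no replicate could be left out. Across 204 counts and medians recomputed under an alternative, 173 stayed close to the reported value, 30 moved and 1 reversed. Of 136 recomputed ratios of single counted members, 0 reversed and 126 stayed more than 2-fold lower. These totals include outcomes fixed in advance. Each member was a single annotated row spanning more than 200 bases, so that the row and length settings could change nothing. The coverage limit removed no member, and a pseudocount cannot reverse a single ratio. The cause of each shift was not tested, except that a fold limit of 1.5 or 3 admits more or fewer genes by construction. With sevoflurane, the 14 lower members became 3 at 3-fold and 9 against the mean of both controls. With desflurane, the 3 lower members became 9 at 1.5-fold, 1 at 3-fold, 5 with median-of-ratios scaling and 6 against the mean of both controls. Sevoflurane against the desflurane control gave 13 lower and 1 higher at 1.5-fold, 1 lower at 3-fold and 4 lower with FPKM, with a median of -0.28 in FPKM. Desflurane against the sevoflurane control gave 17 lower at 1.5-fold and 1 at 3-fold. Between the controls, 8 were lower and 1 higher at 1.5-fold, 2 were lower with FPKM, and 0 were lower at 3-fold, with a pseudocount of 1 TPM, with median-of-ratios scaling and with annotated rows rescaled to the same total. Between the 6 h libraries, 4 were higher with desflurane at 1.5-fold, and 0 at 3-fold, above 5 TPM, with the pseudocount and with FPKM. The median there was 0.051 with median-of-ratios scaling and turned to -0.048 with FPKM. Assembled rows, an alternative chosen after seeing the data, gave 1 higher member with desflurane, 2 higher with sevoflurane against the desflurane control, 2 lower between the controls and 1 higher between the 6 h libraries. With sevoflurane, Oas2, Zbp1, Rsad2 and Epsti1 did not reach 2-fold with the pseudocount (1.78 to 1.99-fold), nor did Ifit3, Usp18, Rsad2 and Epsti1 against the mean of both controls (1.69 to 1.96-fold) or Oas2 and Rsad2 in assembled rows (1.93 and 1.75-fold). A limit of 5 TPM left 11 of the 14, without Oas2, Oasl and Zbp1.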

Other observations

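The tables also hold rows that StringTie assembled from the reads without using a gene symbol, and 29 members had such a row in all 4 libraries. Of 116 assembled values, 72 were within 10% of the annotated value. For Mx2 they were 28.6 and 27.7 TPM in the sevoflurane and desflurane controls and 11.8 and 9.33 TPM after 6 hours, close to the annotated row. For Ifi44 they were higher, 19.9 and 19.2 TPM in the controls and at most 11.97 TPM after 6 hours, so that both 6 h libraries again lay below both controls. For Dtx3l they were 38.8 and 31.1 TPM in the controls and 16.6 and 22.8 TPM after 6 hours.

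Relatives of the OAS family outside the list were mostly silent in these livers. Oas1d was listed at 0 in all 4 libraries, and Oas1e, Oas1f and Oas1h did not exceed 0.141 TPM. Oas1k was at 0.856 and 0.649 TPM in the sevoflurane and desflurane controls and at 0.358 and 0.425 TPM after 6 hours. Oas1i, at 6.82 and 5.07 TPM in the controls and 6.87 and 5.86 TPM after 6 hours, resembled Oas1a in holding its higher levels in the libraries of sevoflurane.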
